A study of Mus musculus with 21 samples.

Results

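Kidney resident macrophages (KRM) were compared with CD11cHI macrophages (CD11chiMϕ) of the Sham-operated mouse kidney, gene by gene, from counts of sequenced RNA. The libraries were chosen by the population and the operation in their sample labels, which gave 7 of the 21 libraries of the series, 4 of KRM and 3 of CD11chiMϕ, and every gene in the table of counts entered the comparison. All 7 came from male C57BL/6J mice aged 24 weeks that had undergone a Sham operation, the control for renal artery stenosis (RAS), and the labels name no altered allele, drug or other agent in either group. The labels give a flow sort time of 5 hours, and the cells were taken as CD45+F4/80+CD64+ cells from which T cells, B cells, NK cells and granulocytes had been gated away. Within that gate KRM were intermediate for CD11b and CD11c and CD11chiMϕ were high for both, so the groups are defined by surface protein and not by RNA. The labels do not say whether a library is 1 mouse or several, so p-values measure the spread between these libraries, which may be technical.

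Macrophages of an organ have several origins. Resident macrophages settle early, live long and renew within the tissue, and in the kidney they lie beside tubules and peritubular capillaries, where they sample small proteins and immune complexes and clear debris. Monocyte-derived macrophages enter from the blood, from classical monocytes, which carry Ly6C, or from non-classical monocytes, which patrol vessel walls and depend on the nuclear receptor Nr4a1, and they share CD11c and many genes with dendritic cells. The question put to these libraries is which genes part the resident from the monocyte-derived cells of the same healthy kidney.

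The libraries held 8380486 to 18592381 counts, with the largest total in KRM replicate 3. Levels are given as CPM, counts per 1000000 counts of a library after TMM, a factor for library composition. CD11chiMϕ replicate 3 stood apart. Genes encoded by mitochondria took 18.4% of its counts, against 1.42% and 1.89% in the other CD11chiMϕ libraries and 1.10% to 1.82% in KRM. The 16 marker genes of the proximal tubule, the most common epithelium of the kidney cortex, summed to 28412 CPM in it, against 481 and 530.0 CPM in the other CD11chiMϕ libraries and 852, 724, 4363 and 780.5 CPM in KRM replicates 1 to 4. Counts of calls below are therefore given over all 7 libraries and over the 6 left without CD11chiMϕ replicate 3. A value of a gene is over 7 libraries unless stated, and most genes are named because they were called both times. The value over 6 follows where the call differed, and for the 2 named genes with a call whose fold moved by over 1.5 times, *Cd209f* and *Id3*. In bulk samples such as these, fewer cells of a type and less RNA per cell cannot be told apart.

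More genes were called lower than higher in KRM. With edgeR's quasi-likelihood test and Benjamini-Hochberg adjustment, 511 of 12380 genes (4.13%) were lower in KRM at an adjusted p under 0.05 and 124 (1%) were higher. A gene past that threshold is called higher or lower here. Without CD11chiMϕ replicate 3 the spread between replicates was smaller, with a biological coefficient of variation of 0.267 against 0.467, and 1173 of 12628 genes (9.29%) were lower and 544 (4.31%) higher. The smaller set of calls was contained almost whole in the larger, since 509 lower genes (4.11%) and 123 higher genes (0.994%) were called in both. The share of calls that were lower in KRM was 80.5% with 7 libraries and 68.3% with 6, and it was 65.1% with DESeq2 and 96.2% with 1 fit over all 6 groups of the series. The groups did not overlap with KRM above in 1570 genes (12.7%) and with KRM below in 1530 (12.4%). Of the log2 fold changes 5639 lay above 0 and 6741 below over 7 libraries, and 6607 and 6021 over 6. TMM centres the fold changes near 0, so these last numbers are a description of the scale.

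Deviations from the group mean correlated between libraries of the same replicate number, but also between some of different numbers. Whether the numbers pair the libraries is therefore not settled. The number was also entered as a block, in which only the 3 pairs bear on the difference and KRM replicate 4, which has no partner, adds nothing. Over 7 libraries the block left 89 of 12380 genes called (0.719%), 87 lower (0.703%) and 2 higher (0.0162%). Without CD11chiMϕ replicate 3, where 2 pairs remain, it gave 1188 lower (9.41%) and 635 higher (5.03%). In that fit KRM replicates 3 and 4 have no partner, so the spread of a gene is taken almost wholly from the other genes. Its counts, here and below, are not a stricter check. The calls of higher genes also hung on single libraries. Over 7 libraries the higher count fell from 124 to 6 without KRM replicate 1, 2 or 4, to 15 without KRM replicate 3 and to 7 without CD11chiMϕ replicate 1, and it rose to 370 without CD11chiMϕ replicate 2. The lower count fell to 149 without KRM replicate 2, 159 without KRM replicate 4, 171 without CD11chiMϕ replicate 1, 179 without KRM replicate 1 and 209 without KRM replicate 3. Where the block changed the call of a gene named below, its adjusted p with the block follows the one without. Called whichever library was left out were 120 lower genes (0.969%) and 3 higher genes (0.0242%).

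**Figure D1:**
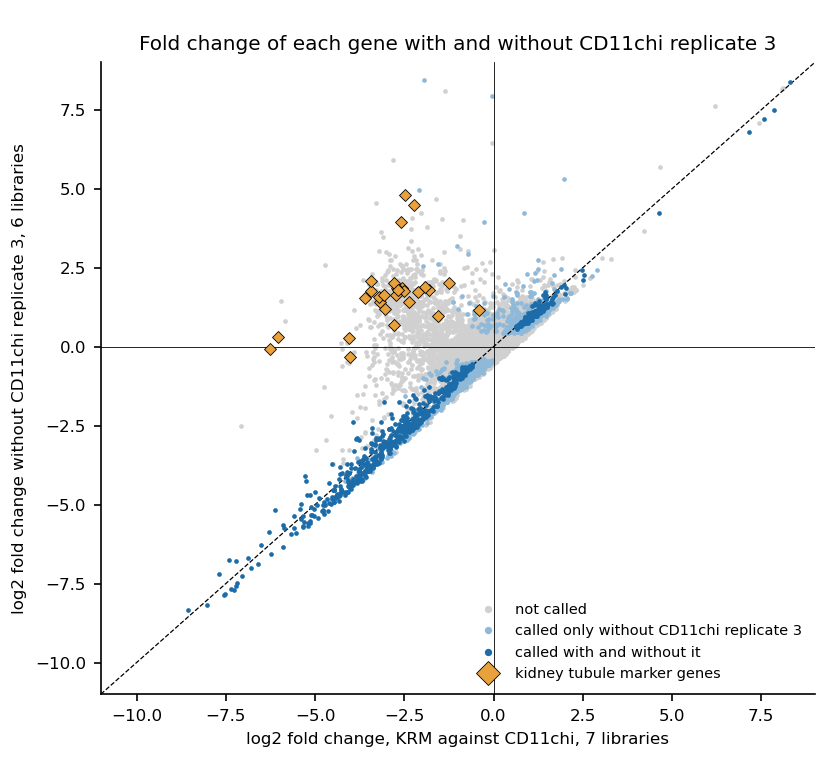
Each point is 1 of 12380 genes, placed by its log2 fold change of KRM against CD11chiMϕ over 7 libraries (x axis) and without CD11chiMϕ replicate 3 (y axis), and the dashed line marks equal values. Genes called both times lie along the line, while the marker genes of kidney tubules (diamonds) all lie left of 0, and also above 0 except 2 of the 28, so that their sign turns with that 1 library.

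The genes behind the sort were read first, since they check the labels. *Itgam*, which encodes CD11b, was at 239, 291, 338 and 322 CPM in KRM and at 640.4, 796 and 138 CPM in CD11chiMϕ. The CD11chiMϕ libraries of replicates 1 and 2 were above all 4 KRM libraries and replicate 3 was not, and the log2 fold change was -0.82 over 7 libraries (adjusted p = 0.335 from edgeR) and -1.27 over 6 (adjusted p = 0.00291). *Itgax*, which encodes CD11c, was at 342, 368, 391 and 422 CPM in KRM and 379, 375 and 126 CPM in CD11chiMϕ. Its groups overlapped, and its log2 fold change was 0.37 over 7 libraries (SE, the standard error, of 0.371, adjusted p = 0.534) and 0.02 over 6 (SE 0.129, adjusted p = 0.944), so no difference in the RNA of the gated protein was detected. *Adgre1*, which encodes F4/80, was at 1462, 1526, 1409.5 and 1686 CPM in KRM and 668, 941 and 348 CPM in CD11chiMϕ, with every KRM library above every CD11chiMϕ library. Its log2 fold change was 1.22 (adjusted p = 0.0916) over 7 libraries and 0.92 (adjusted p = 0.0128) over 6. *Ly6c2*, the Ly6C antigen of classical monocytes, was the 1 gene of the 10 sort markers called over 7 libraries, where 5.13% of all tested genes were, at 7.1, 8.99, 5.95 and 7.48 CPM in KRM and 50.9, 64.6 and 11.4 CPM in CD11chiMϕ. Its log2 fold change was -2.52 (adjusted p = 0.039, or 0.13 with the block) and -2.97 (adjusted p = 9.07e-05) over 6 libraries, and reads can be shared with its close paralogs. Without CD11chiMϕ replicate 3, *Fcgr1* (CD64), *Fcgr4* and *Cx3cr1*, the fractalkine receptor, were also higher in KRM, by 0.84, 0.73 and 0.88 on the log2 scale, and 4 of the 10 were higher and 2 lower, where 4.31% and 9.29% of all tested genes were. Of the 11 genes of the core macrophage signature, a set that macrophages of many tissues share, 7 were higher over 6 libraries, where 4.31% of all tested genes were, *Csf1r*, the receptor for the survival factor CSF1, among them (0.57, adjusted p = 0.0285, with the block 0.0935). Over 7 libraries edgeR called none, although 7 had an unadjusted p under 0.05, DESeq2 called 7 and limma 1. Of the 11, 8 had every KRM library above every CD11chiMϕ library, where 12.7% of all tested genes did.

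Among the genes higher in KRM than in CD11chiMϕ were those of the complement protein C1q, which binds antibody complexes and dying cells and starts the classical complement cascade. Its chains are encoded side by side on chromosome 4, *C1qa* at chr4:136895917-136898803, *C1qb* at chr4:136880129-136886187 and *C1qc* at chr4:136889804-136893065 (GRCm38, GENCODE). *C1qa* was at 4035, 2862, 2659 and 2682 CPM in KRM and 830.2, 1445 and 713 CPM in CD11chiMϕ. *C1qb* was at 8242, 6057, 5395 and 5689 CPM in KRM and 2023, 3065 and 1756 CPM in CD11chiMϕ. *C1qc* was at 5228, 3841, 3366 and 3518 CPM in KRM and 1168, 1820.4 and 941 CPM in CD11chiMϕ. For each chain all 4 KRM libraries were above all 3 CD11chiMϕ libraries, with KRM replicate 1 highest and CD11chiMϕ replicate 3 lowest. The log2 fold changes were 1.62, 1.48 and 1.61 over 7 libraries (standard errors 0.34, 0.323 and 0.331, adjusted p = 0.0407, 0.0458 and 0.0381 from edgeR). They were 1.43, 1.32 and 1.42 without CD11chiMϕ replicate 3 (adjusted p = 0.0143, 0.0115 and 0.0106). With the replicate block the adjusted p over 7 libraries was 0.151, 0.178 and 0.148. CD11cloMϕ, the third macrophage population of the Sham kidney, held less *C1qc* than both, 446 ± 117 CPM (SD, n = 3). Levels of CD11cloMϕ here and below are scaled by TMM over all 21 libraries of the series. Those of KRM and CD11chiMϕ are scaled over the 7, so the scales are not quite the same.

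The promoter of *C1qc* is shown because this gene and both its neighbours were higher in KRM. It spans chr4:136892865-136893164 on the minus strand (RefSeq, GRCm38.p6), from 250 bases before to 50 bases after the transcription start, and the capitals mark GAGGAAGT read on the other strand, the motif searched here for PU.1, the factor that macrophages depend on.
C1qc promoter: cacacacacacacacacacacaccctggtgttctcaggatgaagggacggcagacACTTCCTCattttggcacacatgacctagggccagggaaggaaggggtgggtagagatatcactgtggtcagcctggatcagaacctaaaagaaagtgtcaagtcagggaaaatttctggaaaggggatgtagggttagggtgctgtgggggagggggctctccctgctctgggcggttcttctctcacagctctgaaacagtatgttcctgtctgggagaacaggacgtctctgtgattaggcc
That motif, on either strand, was in 3.56% of the 8613 promoters of tested genes, in 6 of the 90 promoters of genes higher in KRM in both fits and in 18 of the 353 promoters of genes lower in both.

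The other genes with the largest increases covered lipid sugars, matrix sugars, receptors and signalling. Largest here and below is among genes called in both fits, without gene models or immunoglobulin segments. They also had an average of at least 3 on the log2 CPM scale and groups that do not overlap. Genes outside these limits can have larger folds, such as *Abca14* at 2.04 over 7 libraries. *A4galt*, the enzyme that makes the glycolipid Gb3, was at 50.9, 48.8, 39 and 47.3 CPM in KRM and 11.5, 18 and 5.33 CPM in CD11chiMϕ, a log2 fold change of 1.99 over 7 libraries (SE 0.386, adjusted p = 0.0315) and 1.66 over 6 (adjusted p = 0.00285). *Hs3st1*, which sulfates heparan chains, was at 31.8, 25.3, 23.5 and 30.9 CPM in KRM and 8.2, 10.4 and 7.66 CPM in CD11chiMϕ, a log2 fold change of 1.67 (SE 0.211, adjusted p = 0.00817). *Cables1*, an adaptor of cyclin-dependent kinases, was at 25.8, 25.1, 28.5 and 28.1 CPM in KRM and 4.86, 9.65 and 7.11 CPM in CD11chiMϕ, a log2 fold change of 1.90 (SE 0.26, adjusted p = 0.0112). *Hs3st1* and *Cables1* were called whichever library was left out. The other 13 of the 15 largest lost their call without any 1 of KRM replicates 1, 2 and 4 or CD11chiMϕ replicate 1, as did 12 of them without KRM replicate 3. The 15 were chosen among genes whose groups do not overlap, so their separation is no result. *Epor*, the erythropoietin receptor, was at 28.5, 21, 21.4 and 17.3 CPM in KRM and 2.53, 8.8 and 5.47 CPM in CD11chiMϕ (log2 fold change 1.98, adjusted p = 0.0444). The muscle-type splicing kinase gene *Srpk3* was at 142, 145, 136 and 148 CPM in KRM and 38.5, 70.8 and 24.2 CPM in CD11chiMϕ (log2 fold change 1.68, adjusted p = 0.0386). *Lilra5*, an activating immunoglobulin-like receptor of myeloid cells, was at 711, 647, 639 and 699 CPM in KRM and 192, 376 and 149 CPM in CD11chiMϕ. Its log2 fold change was 1.50 (adjusted p = 0.0485). *Ms4a7*, a four-span membrane protein of macrophages, was at 528, 439, 428 and 485 CPM in KRM and 144, 223 and 134 CPM in CD11chiMϕ (log2 fold change 1.49, adjusted p = 0.0174). *Ch25h*, which makes 25-hydroxycholesterol, was at 155, 141, 121 and 149.9 CPM in KRM and 45.7, 64.7 and 36.4 CPM in CD11chiMϕ (log2 fold change 1.53, adjusted p = 0.0144). The rest of the 15 were *Meis3*, a homeobox factor, *Leprel2*, a collagen prolyl hydroxylase, *Cxcl14*, a chemokine, *Plxna4*, a semaphorin receptor, and *Hpgds*, with log2 fold changes from 1.48 to 1.64. Over 6 libraries the 15 kept adjusted p-values from 0.00285 to 0.0290, while with the replicate block over 7 libraries theirs ran from 0.0732 to 0.151 and none was called. In CD11cloMϕ, on its own scale, the mean level of each of the 15 was below that of both KRM and CD11chiMϕ (without replicate 3).

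**Figure D2:**
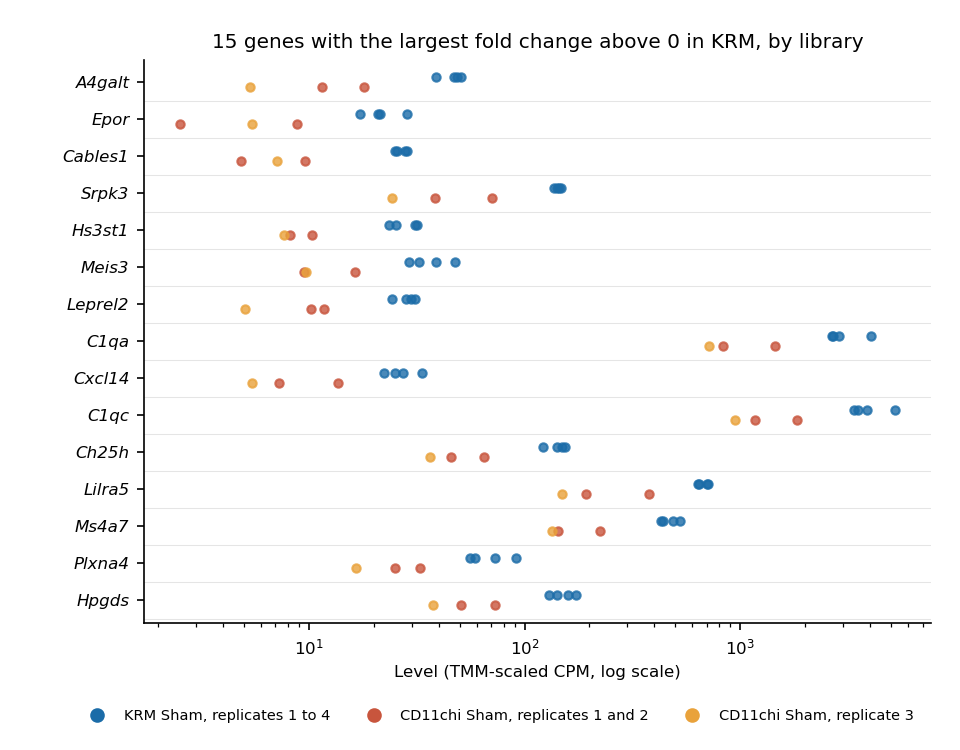
Levels in each library (x axis, TMM-scaled CPM on a log scale) of 15 genes with a fold change above 0, with KRM in blue and CD11chiMϕ in red and orange. They have the largest fold change among genes called with and without CD11chiMϕ replicate 3 and chosen not to overlap. An average of at least 3 on the log2 CPM scale was required, and immunoglobulin segments and gene models were left out. The gap between the groups was a condition of the choice, and for 12 of the 15 the orange point of replicate 3 is the lowest, so the 7-library fold changes exceed those without it. Levels are not divided by gene length and are to be read within a gene.

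Genes by which the macrophages of the serous cavities (peritoneum and pleura) are usually known made up 7 of the 15 largest decreases in KRM. That number holds under the limits on level and overlap given above. Of 20 tested genes of that list 16 were lower in KRM and none was higher, with and without CD11chiMϕ replicate 3, against 4.13% and 9.29% of all tested genes. The median log2 fold change of the list was -6.09 over 7 libraries and -5.75 over 6, where that of all tested genes was -0.07 and 0.03. *Gata6*, the factor that defines the large peritoneal macrophage, was too low to test, at 0 to 0.0513 CPM in KRM and 0 to 1.59 CPM in CD11chiMϕ. The list was drawn up with earlier results of these data known, so its count is not independent evidence of its direction. Members almost absent from KRM, such as *Serpinb2*, also passed the count filter through CD11chiMϕ alone, so being tested fixed their direction. The median and the counts with the block or with a library left out carry the same limit. So do such members of the lists below.

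*Serpinb2*, an inhibitor of urokinase, gave the largest fold change of these 15. It was at 0, 0, 0.205 and 0 CPM in KRM and 6.68, 52.6 and 39.9 CPM in CD11chiMϕ, and 4 counts in all 4 KRM libraries together stood against 854 in CD11chiMϕ. The log2 fold change was -8.55 (SE 1.09, adjusted p = 0.0084) and -8.34 without CD11chiMϕ replicate 3 (adjusted p = 0.00215). *Retnla*, a secreted protein induced by interleukin 4, was at 8.05, 7.63, 7.6 and 8.2 CPM in KRM and 2359.9, 824 and 691 CPM in CD11chiMϕ, with KRM libraries that differed little from each other. Its log2 fold change was -7.36 (SE 0.526, adjusted p = 0.00246) and -7.66 over 6 libraries (adjusted p = 4.80e-05), and reads can be shared with its paralogs. Both kept their call with the replicate block, at 0.0359 and 0.0325, and *Serpinb2* lost it without KRM replicate 3, at 0.0537.

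The promoters of these 2 genes are shown as those of the strongest decreases under those limits, on the plus strand at chr1:107511173-107511472 and chr16:48842359-48842658 (RefSeq, GRCm38.p6). The capitals mark TTGCNNAA, searched here for C/EBP factors, in both, with TGANTCA, searched for AP-1, in *Serpinb2* and GAGGAAGT read on the other strand in *Retnla*.
Serpinb2 promoter: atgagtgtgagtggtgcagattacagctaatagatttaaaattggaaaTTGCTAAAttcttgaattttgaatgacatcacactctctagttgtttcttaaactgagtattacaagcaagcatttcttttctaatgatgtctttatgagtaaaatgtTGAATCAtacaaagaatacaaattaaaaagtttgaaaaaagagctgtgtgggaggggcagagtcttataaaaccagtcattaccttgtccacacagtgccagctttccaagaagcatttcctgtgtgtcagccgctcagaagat
Retnla promoter: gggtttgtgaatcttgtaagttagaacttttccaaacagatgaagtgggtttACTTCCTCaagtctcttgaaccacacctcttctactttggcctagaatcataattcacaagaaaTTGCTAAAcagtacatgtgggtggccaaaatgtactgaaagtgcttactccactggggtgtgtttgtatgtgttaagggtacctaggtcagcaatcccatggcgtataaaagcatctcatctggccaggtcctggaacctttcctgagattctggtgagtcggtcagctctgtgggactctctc
On either strand TGANTCA was in 33 of 353 promoters of genes lower in both fits (9.35%), in 4 of 90 of genes higher in both (4.44%) and in 4.91% of all 8613. TTGCNNAA was in 45 (12.7%), 8 (8.89%) and 8.49% of them. These and GAGGAAGT are 3 of 5 motifs searched, since motifs for interferon regulatory factors and NF-kB were counted too and are not reported here. The motifs were counted whether or not they overlapped each other, and a match is a description of these letters and not a site.

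*Serpinb2* is on the serous cavity list and *Retnla* is not. Other genes of the list are secreted or bind microbes. *Saa3*, an acute phase apolipoprotein, was at 0.355, 0, 0.513 and 0.205 CPM in KRM and 12.2, 56.3 and 65.9 CPM in CD11chiMϕ. *Fcna*, ficolin A, a lectin that starts the lectin pathway of complement, was at 0.592, 0.837, 0.924 and 1.64 CPM in KRM and 32.6, 84.8 and 118 CPM in CD11chiMϕ. *Prg4*, lubricin, was at 0.237, 0.209, 0.821 and 0.82 CPM in KRM and 24.3, 65.8 and 64.3 CPM in CD11chiMϕ. In all 3 the lowest CD11chiMϕ library was replicate 1 and still lay above every KRM library, and the log2 fold changes were -7.20, -6.28 and -6.52 (adjusted p = 0.00706, 0.00324 and 0.00355). *Lyz1*, a lysozyme that can share reads with *Lyz2*, was at 3.2, 5.54, 1.75 and 4.92 CPM in KRM and 1094, 444 and 237 CPM in CD11chiMϕ (log2 fold change -7.27, adjusted p = 0.00372). *Cxcl13*, which draws B cells, was at 0.473, 0.314, 0.462 and 0.102 CPM in KRM and 15.6, 78.1 and 26.4 CPM in CD11chiMϕ (log2 fold change -6.80, adjusted p = 0.00532). *Slpi*, a protease inhibitor, was at 9.11, 6.07, 8.52 and 7.17 CPM in KRM and 78.1, 126 and 168 CPM in CD11chiMϕ (log2 fold change -4.002, adjusted p = 0.00246). The complement receptor *Vsig4* and the adhesion receptor *Selp* had at most 2 counts over the 4 KRM libraries and 271 and 259 over the 3 CD11chiMϕ libraries, so no fold is given for them (adjusted p = 0.00951 and 0.00623, with the block 0.0443 and 0.0408). *Cd300lg* and *Cd209f*, a mucin-like receptor and a lectin outside the list, closed the 15 largest decreases at -5.33 and -5.28, the latter -4.11 over 6 libraries (adjusted p = 0.0152 and 0.0128, with the block 0.079 for the latter). *Cd300lg* lost its call without KRM replicate 1, 3 or 4 or CD11chiMϕ replicate 1, and *Cd209f* without KRM replicate 2 or 4. With the replicate block 14 of the list were lower, against 0.703% of all tested genes, and 11 were lower whichever library was left out, against 0.969%.

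**Figure D3:**
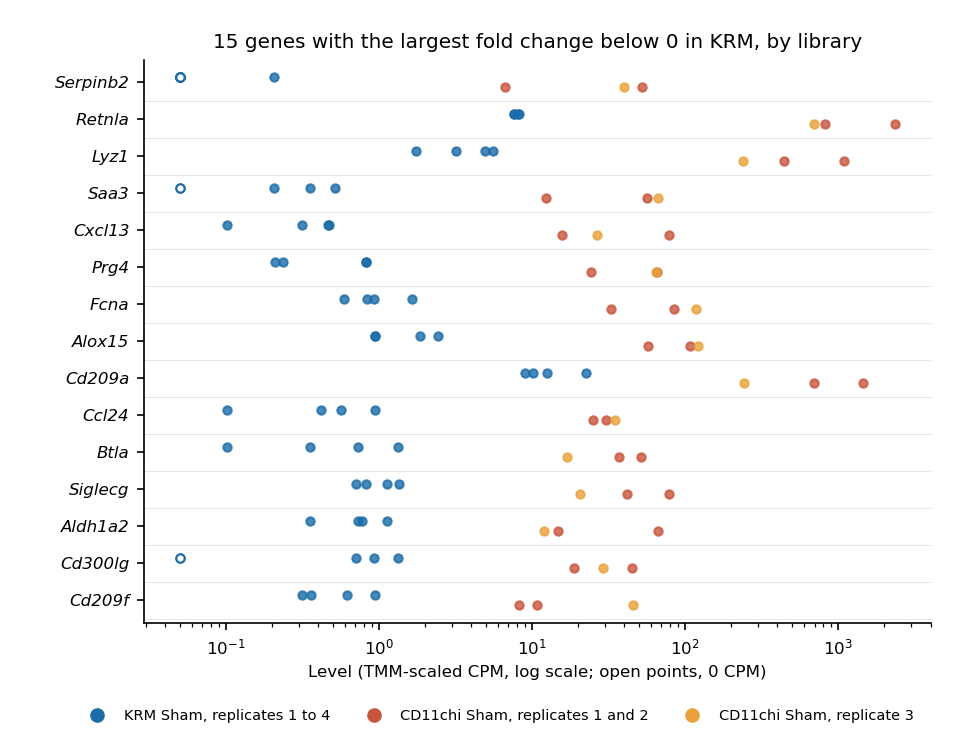
Levels in each library (x axis, TMM-scaled CPM on a log scale) of 15 genes with a fold change below 0, with open points at the left edge for libraries at 0 CPM. They have the largest fold change among genes called with and without CD11chiMϕ replicate 3 and chosen not to overlap. An average of at least 3 on the log2 CPM scale was required, and immunoglobulin segments and gene models were left out. The gap between the groups was a condition of the choice, and the orange points of CD11chiMϕ replicate 3 lie among or beside the red ones. Levels are not divided by gene length and are to be read within a gene.

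Of 13 genes of non-classical monocytes 6 were lower in KRM over 7 libraries and 11 over 6, and of 14 genes of classical monocytes 10 and 13, with none higher in either list, against 4.13% and 9.29% of all tested genes that were lower. Their median log2 fold changes were -2.64 and -3.39 over 7 libraries and -2.60 and -3.88 over 6, and over 7 2 of the 13 and 0 of the 14 lay above 0. *Ace*, the angiotensin-converting enzyme, was at 9.35, 8.78, 11.2 and 15.3 CPM in KRM and 356, 182 and 33.8 CPM in CD11chiMϕ. *Cd300e*, an activating receptor, was at 4.85, 5.02, 3.95 and 9.73 CPM in KRM and 176, 86.6 and 15.3 CPM in CD11chiMϕ. *Pglyrp1*, which binds peptidoglycan, was at 2.72, 0.941, 0.359 and 2.25 CPM in KRM and 69.1, 37.2 and 8.21 CPM in CD11chiMϕ. For all 3 replicate 3 was the lowest of the CD11chiMϕ libraries and replicate 1 the highest, and the log2 fold changes were -4.09, -3.98 and -4.64 (adjusted p = 0.0216, 0.0292 and 0.0295, with the block 0.133, 0.101 and 0.0325). They were -4.59, -4.49 and -5.19 without replicate 3. *Nr4a1*, the receptor on which non-classical monocytes depend, was at 129, 125, 98.1 and 106 CPM in KRM and 1140.0, 719.8 and 283 CPM in CD11chiMϕ (log2 fold change -2.64, adjusted p = 0.0184, with the block 0.0852). *Spn*, which encodes CD43 of the same cells, was at 135, 130.4, 111 and 129 CPM in KRM and 113, 103 and 40.8 CPM in CD11chiMϕ (log2 fold change 0.56, adjusted p = 0.319).

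Of the classical set, *Fn1*, fibronectin, was at 14.8, 21.2, 18.4 and 22.3 CPM in KRM and 952, 909.6 and 252 CPM in CD11chiMϕ, a log2 fold change of -5.20 (SE 0.492, adjusted p = 0.00367) and of -5.59 over 6 libraries (adjusted p = 1.58e-05). *Plac8* was at 11.8, 10, 8.78 and 12.6 CPM in KRM and 227, 182 and 20.8 CPM in CD11chiMϕ (log2 fold change -3.73, adjusted p = 0.0277, with the block 0.136). *Ccr2*, the receptor by which monocytes leave the marrow, was at 487, 648, 641 and 771 CPM in KRM and 895, 1157 and 262 CPM in CD11chiMϕ. The groups overlapped in *Ccr2* and its log2 fold change was -0.28 over 7 libraries (adjusted p = 0.724) and -0.69 over 6 (adjusted p = 0.0544). In CD11cloMϕ, *Fn1* was at 3399 ± 682 CPM and *Plac8* at 801 ± 244 CPM (SD, n = 3), above both other populations. With the replicate block 1 of the non-classical and 5 of the classical list were lower over 7 libraries and 11 and 14 over 6, against 0.703% and 9.41% of all tested genes.

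Of the dendritic cell list, 16 genes, 10 were lower in KRM over 7 libraries and 13 over 6, with none higher, against the same 4.13% and 9.29%. The other 6 were not called over 7 libraries, and 2 of the 16 lay above 0. *Cd209a*, the mouse counterpart of DC-SIGN, was at 12.4, 10.1, 9.03 and 22.3 CPM in KRM and 1455, 694 and 243 CPM in CD11chiMϕ (log2 fold change -5.89, adjusted p = 0.00623). *Zbtb46*, a transcription factor of conventional dendritic cells, was at 1.54, 3.76, 3.85 and 4.71 CPM in KRM and 79.8, 53.9 and 20 CPM in CD11chiMϕ (log2 fold change -3.87, adjusted p = 0.0119, with the block 0.0955). In both genes replicate 1 led the CD11chiMϕ libraries and replicate 3 was lowest, without overlap with KRM. *Klrd1*, a lectin-like receptor that NK cells carry too, was at 1.66, 1.57, 1.39 and 2.05 CPM in KRM and 104, 54 and 17 CPM in CD11chiMϕ (log2 fold change -5.13, adjusted p = 0.00623). *Cd24a*, a surface sialoprotein, was at 3.31, 3.45, 5.95 and 3.07 CPM in KRM and 75.7, 67.9 and 68.4 CPM in CD11chiMϕ (log2 fold change -4.14, adjusted p = 0.00204). *Cd24a* thus gave nearly the same level in the 3 CD11chiMϕ libraries, where those of *Klrd1* ranged from 17 to 104 CPM. *Mgl2*, a lectin of dermal and peripheral dendritic cells, was at 617, 531, 477 and 509 CPM in KRM and 757, 629 and 244 CPM in CD11chiMϕ, overlapping, and was not called over 7 or 6 libraries (log2 fold change -0.03 and -0.37, adjusted p = 0.971 and 0.138). The mean level of *Zbtb46* in CD11cloMϕ was 4.83 CPM and that of *Klrd1* 0.698 CPM. With the block 5 of the list were lower over 7 libraries and 13 over 6, against those 0.703% and 9.41%.

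Of 15 genes of MHC class II, which shows peptides to helper T cells, and of costimulation, 2 were lower in KRM over 7 libraries, where 4.13% of all tested genes were, and none was higher. They were *H2-DMb2* and *H2-Oa*, whose products control the loading of peptides. Over 6 libraries 5 were lower and 1 higher, against 9.29% and 4.31% of all. *H2-DMb2* was at 35.3, 25.5, 22.7 and 24.2 CPM in KRM and 246, 133 and 65.5 CPM in CD11chiMϕ (log2 fold change -2.46, adjusted p = 0.0216, with the block 0.0666). *H2-Oa* was at 25.7, 22.8, 18.6 and 24.1 CPM in KRM and 123, 82.2 and 38.7 CPM in CD11chiMϕ (log2 fold change -1.84, adjusted p = 0.0319, with the block 0.0955). Every CD11chiMϕ library was above every KRM library in both. *Cd74*, the invariant chain, was at 79140.3, 61215, 52898 and 57962 CPM in KRM and 44833, 41201 and 20846 CPM in CD11chiMϕ, with every KRM library higher, but its log2 fold change of 0.82 did not pass the threshold (adjusted p = 0.285, 0.0764 over 6 libraries). *H2-Ab1*, a class II chain, was at 26304, 19835, 18526 and 19859 CPM in KRM and 18171, 15929 and 9011 CPM in CD11chiMϕ (log2 fold change 0.56, adjusted p = 0.365).

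Of 23 genes of the cell cycle list 15 were lower over 7 libraries and 19 over 6, against 4.13% and 9.29% of all tested genes, none was higher, and the median log2 fold change was -2.25 and -2.40. *Bub1*, a kinase of the spindle checkpoint, was at 0.118, 0.209, 0.873 and 1.33 CPM in KRM and 9.11, 8.8 and 5.88 CPM in CD11chiMϕ (log2 fold change -3.59, adjusted p = 0.0344, with the block 0.109). *Ccnb2*, a cyclin of mitosis, was at 0.828, 2.61, 1.18 and 1.74 CPM in KRM and 15.6, 16.2 and 16.3 CPM in CD11chiMϕ (log2 fold change -3.33, adjusted p = 0.00709, with the block 0.061). *Ccnb1*, another mitotic cyclin, was at 1.42, 1.99, 1.18 and 0.922 CPM in KRM and 12.2, 12.2 and 10.7 CPM in CD11chiMϕ (log2 fold change -3.08, adjusted p = 0.00532, with the block 0.0623). The 3 CD11chiMϕ libraries gave nearly the same level of each cyclin, replicate 3 included, and no KRM library came near it. *Kif11*, a motor of the spindle, was at 0.592, 0.837, 3.03 and 1.84 CPM in KRM and 13.8, 12.7 and 14 CPM in CD11chiMϕ (log2 fold change -3.06, adjusted p = 0.0249, with the block 0.0955). Of the genes of DNA replication, *Pcna*, the DNA polymerase clamp, was at 86, 83.9, 71.1 and 95.6 CPM in KRM and 129, 78.8 and 68.7 CPM in CD11chiMϕ, overlapping (log2 fold change -0.13, adjusted p = 0.752, 0.362 over 6 libraries). *Mcm6*, of the replicative helicase, was at 43.9, 61.1, 56.9 and 63.7 CPM in KRM and 109, 78.9 and 39.7 CPM in CD11chiMϕ and was called over 6 libraries only (log2 fold change -0.73, adjusted p = 0.0409, 0.42 over 7). With the replicate block 3 of the list were lower over 7 libraries and 16 over 6, against 0.703% and 9.41% of all tested genes. Lower whichever library was left out were 6, against 0.969% of all.

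Of 19 genes of S100 proteins, which bind calcium, annexins, which bind membranes, and actin-binding proteins, 10 were lower in KRM over 7 libraries, the same number with the block, 8 whichever library was left out, and 12 over 6 libraries, with none higher. Of all tested genes 4.13% were lower over 7 libraries, 0.703% with the block, 0.969% whichever library was left out and 9.29% over 6. *S100a4*, which acts in cell movement, was at 8.4, 4.91, 5.39 and 7.89 CPM in KRM and 233, 136 and 51.4 CPM in CD11chiMϕ (log2 fold change -4.40, adjusted p = 0.00627). *Capg*, which caps actin filaments, was at 9.94, 7.53, 7.85 and 10.6 CPM in KRM and 253, 105 and 70.3 CPM in CD11chiMϕ (log2 fold change -3.99, adjusted p = 0.00623). *Ahnak*, a giant scaffold protein under the membrane, was at 27.2, 32.2, 33.5 and 37.5 CPM in KRM and 706, 480.0 and 307 CPM in CD11chiMϕ (log2 fold change -3.93, adjusted p = 0.00246). In each of these the lowest CD11chiMϕ library was replicate 3 and still lay well above the KRM libraries, which were close together. *S100a10*, which binds annexin A2 at the membrane, was at 11.4, 9.52, 10.4 and 11.5 CPM in KRM and 219, 107 and 108 CPM in CD11chiMϕ (log2 fold change -3.76, adjusted p = 0.00246). *Lgals3*, galectin 3, 1 of the most abundant members, had a log2 fold change of -0.55 (adjusted p = 0.3, 0.0604 over 6 libraries).

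**Figure D4:**
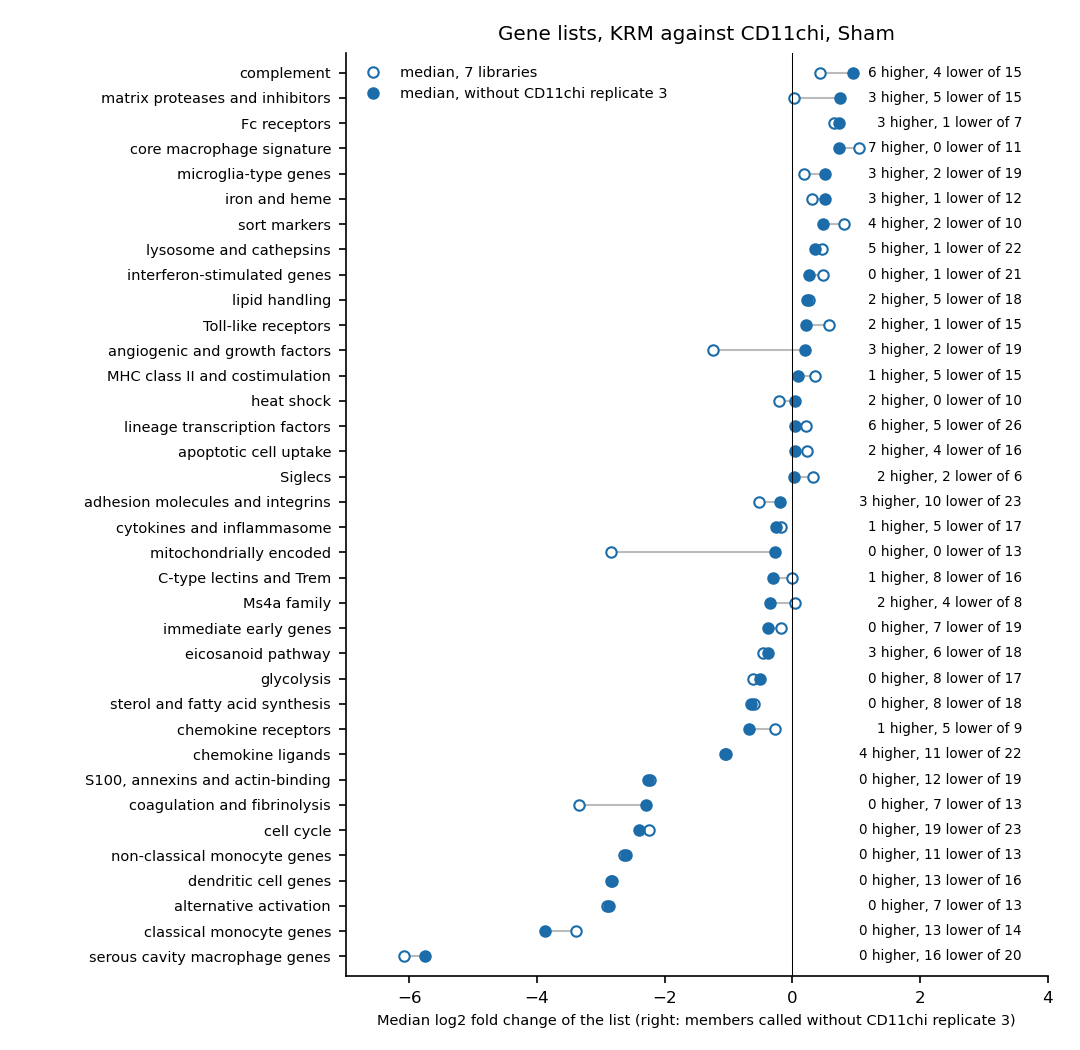
Median log2 fold change of KRM against CD11chiMϕ (x axis) of 36 gene lists, over 7 libraries (open) and without CD11chiMϕ replicate 3 (filled), with the number of members called over the 6 libraries at the right. Lists of serous cavity macrophages, monocytes, alternative activation and dendritic cells lie furthest below 0 without it, and the mitochondrially encoded and the angiogenic lists shift most when that library is left out.

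Chemokines, which guide the movement of white cells, were called in both directions. Of 21 tested genes 7 were lower and 2 higher in KRM over 7 libraries, and 11 and 4 of 22 over 6. Of all tested genes 4.13% were lower and 1% higher over 7 libraries, and 9.29% and 4.31% over 6. *Ccl17*, which draws T cells through CCR4, was at 0.118, 0.314, 0.359 and 0.41 CPM in KRM and 21.1, 7 and 12 CPM in CD11chiMϕ (log2 fold change -5.39, adjusted p = 0.0043, with the block 0.0537). *Ccl22*, which shares that receptor, was at 2.72, 1.25, 1.44 and 3.59 CPM in KRM and 48.2, 23 and 40.3 CPM in CD11chiMϕ (log2 fold change -4.05, adjusted p = 0.00623). *Ccl24*, an eotaxin, was at 0.947, 0.418, 0.565 and 0.102 CPM in KRM and 30.5, 24.9 and 34.9 CPM in CD11chiMϕ (log2 fold change -5.86, adjusted p = 0.00355). All 3 were low in every KRM library, and CD11chiMϕ replicate 3 lay among the other CD11chiMϕ libraries or above them. *Ccl2*, the ligand of CCR2, was at 35.6, 36.2, 22.1 and 49.3 CPM in KRM and 315, 101 and 132 CPM in CD11chiMϕ (log2 fold change -2.35, adjusted p = 0.0277, with the block 0.079). Its close relative *Ccl12*, with which it can share reads, was higher in KRM, at 106, 93.2, 71.8 and 121 CPM in KRM and 46.6, 44 and 43.4 CPM in CD11chiMϕ (log2 fold change 1.13, adjusted p = 0.0249, with the block 0.141). *Cxcl16*, a membrane-bound chemokine, was higher in KRM over 6 libraries, at 1670.2, 1409, 1342 and 1387 CPM in KRM and 532, 837 and 390.2 CPM in CD11chiMϕ (log2 fold change 1.09, adjusted p = 0.013, and 0.0516 over 7). Of 7 receptors tested, 2 were lower over 7 libraries, and 5 of 9 were lower and 1 higher over 6, beside the same shares of all genes. *Ccr7*, which guides dendritic cells to lymph nodes, was at 4.26, 2.72, 2.36 and 5.84 CPM in KRM and 54.2, 13.4 and 26.8 CPM in CD11chiMϕ (log2 fold change -3.06, adjusted p = 0.0223, with the block 0.0501). *Ccr1*, an inflammatory receptor, was at 15.6, 15.2, 17.6 and 15.5 CPM in KRM and 105, 96.5 and 31.9 CPM in CD11chiMϕ (log2 fold change -2.28, adjusted p = 0.0195, with the block 0.133). Neither receptor was called with the block, at 0.0501 and 0.133.

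Of 16 cytokine and inflammasome genes 4 were lower in KRM over 7 libraries, none was higher, and with the block none was called. Over 6 libraries 5 of 17 were lower and 1 higher. The shares of all tested genes that were lower were 4.13% over 7 libraries, 0.703% with the block and 9.29% over 6, where 4.31% were higher. *Il6*, interleukin 6, was at 0.118, 0.837, 0.103 and 0.82 CPM in KRM and 10.9, 8.59 and 10.8 CPM in CD11chiMϕ (log2 fold change -4.44, adjusted p = 0.0197, with the block 0.0858). *Il1rn*, the interleukin 1 receptor antagonist, was at 2.25, 1.88, 1.95 and 1.43 CPM in KRM and 58.7, 22.5 and 8.62 CPM in CD11chiMϕ (log2 fold change -3.99, adjusted p = 0.016, with the block 0.0845). *Il1a*, which acts through that receptor, was at 3.31, 3.14, 2.62 and 2.66 CPM in KRM and 11.6, 9.12 and 16.8 CPM in CD11chiMϕ (log2 fold change -2.09, adjusted p = 0.0122, with the block 0.124). The groups did not overlap in any of the 3. *Osm*, oncostatin M, changed by -1.58 on the log2 scale (adjusted p = 0.0306, with the block 0.109), while *Il1b*, the most abundant gene of the list, was not called, at 1099, 1083, 994 and 982 CPM in KRM and 839.7, 1367 and 914 CPM in CD11chiMϕ (log2 fold change -0.00, adjusted p = 0.997, 0.806 over 6 libraries). Of 21 interferon-stimulated genes edgeR called none over 7 libraries, where 5 had an unadjusted p under 0.05, DESeq2 called 1 and limma 0, and over 6 libraries edgeR called 1, which was lower, where 13.6% of all tested genes were called.

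Of 12 genes of alternative activation, the state that interleukin 4 induces, 6 were lower in KRM over 7 libraries, among them *Retnla* and *Ccl24*, none was higher, and 4 were lower with the block, and 7 of 13 were lower over 6, against 4.13%, 0.703% and 9.29% of all tested genes in these 3 fits. *Folr2*, a folate receptor of tissue macrophages, was at 2.6, 0.523, 0.873 and 1.95 CPM in KRM and 16.3, 24.7 and 45.5 CPM in CD11chiMϕ (log2 fold change -4.29, adjusted p = 0.0126, with the block 0.0845). Genes known from microglia, the macrophages of the brain, gave 1 call of 19 over 7 libraries, a share like the 5.13% of all tested genes, and over 6 libraries 3 were higher and 2 lower, where 13.6% of all were called. The 1 call was *Fcrls*, which was lower in KRM at 6.86, 6.48, 6.98 and 7.79 CPM in KRM and 253, 57.1 and 42.3 CPM in CD11chiMϕ (log2 fold change -4.06, adjusted p = 0.016, with the block 0.0797). *Tmem119*, a membrane protein by which microglia are told apart, was higher in KRM over 6 libraries, at 333, 263, 237 and 242 CPM in KRM and 76.6, 111 and 20.8 CPM in CD11chiMϕ (log2 fold change 1.52, adjusted p = 0.00404, and 0.0791 over 7). *Vcam1*, an adhesion molecule that marks some tissue macrophages, was at 294, 322, 356 and 253 CPM in KRM and 30.3, 202 and 30 CPM in CD11chiMϕ (log2 fold change 1.81, adjusted p = 0.176, 0.171 over 6).

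Of 16 genes of C-type lectins and Trem receptors 7 were lower in KRM and none was higher over 7 libraries, and 8 and 1 over 6, where 4.13% and 1% of all tested genes were lower and higher over 7 libraries and 9.29% and 4.31% over 6. *Clec4e*, Mincle, which binds mycobacterial glycolipid, was at 3.08, 3.14, 3.7 and 5.12 CPM in KRM and 97.8, 91.2 and 33.4 CPM in CD11chiMϕ (log2 fold change -4.30, adjusted p = 0.00372). *Trem1*, which amplifies inflammatory signals, was at 2.25, 1.67, 1.9 and 5.53 CPM in KRM and 73.3, 61.4 and 9.16 CPM in CD11chiMϕ (log2 fold change -4.08, adjusted p = 0.0268, with the block 0.086). CD11chiMϕ replicate 3 held the least of both and was still above KRM. Of the Siglecs, receptors that bind sialic acid, 1 of 6 was lower over 7 libraries, and 2 were lower and 2 higher over 6, beside those shares of all genes. *Siglecg*, which inhibits signalling in B cells, was at 0.71, 1.36, 0.821 and 1.13 CPM in KRM and 78.9, 41.6 and 20.5 CPM in CD11chiMϕ (log2 fold change -5.54, adjusted p = 0.00355). *Btla*, an inhibitory receptor also found on lymphocytes, was at 0.355, 0.732, 1.33 and 0.102 CPM in KRM and 36.8, 51.4 and 17 CPM in CD11chiMϕ (log2 fold change -5.68, adjusted p = 0.00863, with the block 0.0562). *Siglece* was higher in KRM over 6 libraries, at 488, 428, 397 and 420.2 CPM in KRM and 164, 223 and 54.7 CPM in CD11chiMϕ (log2 fold change 1.17, adjusted p = 0.00449, and 0.0909 over 7). The Ms4a family of four-span membrane proteins divided, with *Ms4a7* and *Ms4a14* higher in KRM and *Ms4a4b* (with the block 0.0935) and *Ms4a8a* lower, 2 and 2 of 8, and 2 and 4 over 6, where 5.13% of all tested genes were called over 7 libraries and 13.6% over 6. *Ms4a8a* was at 0.237, 0.314, 0.154 and 0.512 CPM in KRM and 14.4, 14.1 and 8.07 CPM in CD11chiMϕ (log2 fold change -5.32, adjusted p = 0.00337) and *Ms4a14* differed by 1.31 on the log2 scale (adjusted p = 0.0368, with the block 0.149). Of 15 Toll-like receptor genes 1 was called over 7 libraries, a share near that 5.13%, and over 6 2 were higher and 1 lower. The 1 called was *Tlr12*, a receptor for profilin, which was higher in KRM at 69.1, 61.8, 62.8 and 69.6 CPM in KRM and 16.8, 29.1 and 25.7 CPM in CD11chiMϕ (log2 fold change 1.46, adjusted p = 0.0131, with the block 0.105).

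Of 16 genes for the uptake of dying cells 4 were lower in KRM over 7 libraries and none was higher, and 4 and 2 over 6, against 4.13% and 1% of all tested genes that were lower and higher over 7 libraries and 9.29% and 4.31% over 6. *Timd4*, which binds phosphatidylserine, was at 0.118, 0, 0.154 and 0.717 CPM in KRM and 3.84, 8.38 and 12.2 CPM in CD11chiMϕ (log2 fold change -5.00, adjusted p = 0.0268, with the block 0.0562). *Cd163*, the receptor for haemoglobin and haptoglobin, was at 5.09, 6.38, 5.65 and 4.71 CPM in KRM and 30.1, 38.2 and 18.9 CPM in CD11chiMϕ (log2 fold change -2.41, adjusted p = 0.00623, with the block 0.0605). *Tgm2*, transglutaminase 2, was at 7.81, 11.4, 28.1 and 13.7 CPM in KRM and 149.8, 83.6 and 218 CPM in CD11chiMϕ (log2 fold change -3.29, adjusted p = 0.0152). *Tgm2* was highest in CD11chiMϕ replicate 3 and, among KRM, in replicate 3, the libraries with the most tubule RNA, and its log2 fold change without CD11chiMϕ replicate 3 was -2.90 (adjusted p = 0.00551). *Axl*, a receptor that binds phosphatidylserine through Gas6, was higher in KRM over 6 libraries, at 1721, 1712, 1632 and 1831 CPM in KRM and 755, 986 and 301 CPM in CD11chiMϕ (log2 fold change 0.99, adjusted p = 0.00552, and 0.1 over 7). The complement list divided. *Cfp*, properdin, which stabilises the alternative pathway convertase, was at 27.5, 25.8, 23.7 and 28 CPM in KRM and 455, 249 and 173 CPM in CD11chiMϕ (log2 fold change -3.48, adjusted p = 0.00367). *C3*, the central component, was at 16.2, 24.7, 27.3 and 25.3 CPM in KRM and 118, 146 and 52.9 CPM in CD11chiMϕ (log2 fold change -2.17, adjusted p = 0.0184, with the block 0.122). *C4b*, whose reads can be shared with a paralog, differed by -1.66 on the log2 scale (adjusted p = 0.0378, with the block 0.177). In all, 3 of 15 complement genes were higher and 4 lower over 7 libraries, and 6 and 4 over 6, where 1% and 4.13% of all tested genes were higher and lower over 7 and 4.31% and 9.29% over 6.

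The eicosanoid pathway, which turns arachidonate into prostaglandins and leukotrienes, was called in both directions. *Alox15*, a lipoxygenase, was at 0.947, 0.941, 2.41 and 1.84 CPM in KRM and 57.3, 108 and 121 CPM in CD11chiMϕ (log2 fold change -5.90, adjusted p = 0.00246). *Alox5*, which starts the leukotriene branch, was at 4.38, 2.41, 4.67 and 7.58 CPM in KRM and 75.1, 49.1 and 19.7 CPM in CD11chiMϕ (log2 fold change -3.33, adjusted p = 0.0171, with the block 0.0763). *Ptgir*, the prostacyclin receptor, was at 0.592, 0.837, 0.873 and 1.33 CPM in KRM and 26.2, 13.4 and 6.84 CPM in CD11chiMϕ (log2 fold change -4.07, adjusted p = 0.00878, with the block 0.0712). Each was lower in every KRM library. Of the cyclooxygenases, the inducible *Ptgs2* was lower in KRM, at 3.31, 7.95, 5.44 and 12.9 CPM in KRM and 49.1, 77.6 and 31.3 CPM in CD11chiMϕ (log2 fold change -2.83, adjusted p = 0.0233, with the block 0.0425). The constitutive *Ptgs1* was higher, at 141, 143, 139 and 137 CPM in KRM and 44.9, 84.8 and 35.6 CPM in CD11chiMϕ (log2 fold change 1.35, adjusted p = 0.0488, with the block 0.132). *Hpgds*, which makes prostaglandin D2, was higher too, at 158, 173, 130.3 and 141 CPM in KRM and 50.9, 73.4 and 37.6 CPM in CD11chiMϕ (log2 fold change 1.48, adjusted p = 0.0216, with the block 0.0732). Of 18 genes tested 5 were lower and 2 higher over 7 libraries, 6 and 3 over 6, and with the block 2 were lower. The shares of all tested genes that were lower and higher were 4.13% and 1% over 7 libraries and 9.29% and 4.31% over 6, and 0.703% were lower with the block.

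Of 19 angiogenic and growth factor genes 2 were higher and 2 lower over 7 libraries, 3 and 2 over 6, where 1% of all tested genes were higher and 4.13% lower over 7 and 4.31% and 9.29% over 6. The list's median went from -1.24 over 7 libraries to 0.19 over 6. *Pdgfb*, a growth factor for pericytes, was higher in KRM, at 171, 143, 123 and 147 CPM in KRM and 68.6, 71.8 and 38.4 CPM in CD11chiMϕ (log2 fold change 1.29, adjusted p = 0.0338, with the block 0.105). *Tgfb3*, a transforming growth factor, was higher too, at 23, 18.6, 22.2 and 24.5 CPM in KRM and 5.77, 12.4 and 6.15 CPM in CD11chiMϕ (log2 fold change 1.44, adjusted p = 0.0457, with the block 0.175). *Thbs1*, thrombospondin 1, an inhibitor of vessel growth, was lower, at 21.2, 19.5, 21.7 and 15.7 CPM in KRM and 63.5, 357 and 88.4 CPM in CD11chiMϕ (log2 fold change -3.12, adjusted p = 0.0281, with the block 0.144). CD11chiMϕ replicate 2 held the most *Thbs1* by far. Of 15 matrix proteases and inhibitors 1 was higher and 3 lower over 7 libraries, and 3 and 5 over 6, beside those same shares. *Mmp13*, a collagenase, was higher in KRM, at 559.9, 687, 637 and 790.0 CPM in KRM and 247, 359 and 201 CPM in CD11chiMϕ (log2 fold change 1.32, adjusted p = 0.0328, with the block 0.148). *Mmp9*, a gelatinase, was lower, at 1.3, 1.36, 1.49 and 0.82 CPM in KRM and 34.4, 24.2 and 24.5 CPM in CD11chiMϕ (log2 fold change -4.46, adjusted p = 0.00204). *Plaur*, the urokinase receptor, was lower, at 6.75, 7.11, 4.82 and 4.71 CPM in KRM and 131, 85.1 and 29.7 CPM in CD11chiMϕ (log2 fold change -3.81, adjusted p = 0.00817). With the replicate block *Mmp9* and *Plaur* stayed called, at 0.0329 and 0.0433, and *Pdgfb*, *Tgfb3*, *Thbs1* and *Mmp13* did not, at 0.105, 0.175, 0.144 and 0.148. Of 22 adhesion genes *Cadm1*, a cell adhesion molecule of mast cells and dendritic cells, was the 1 higher in KRM, at 674, 663, 607 and 633 CPM in KRM and 192, 353 and 182 CPM in CD11chiMϕ (log2 fold change 1.41, adjusted p = 0.0325, with the block 0.13), and *Selp* and *Itgae* (with the block 0.133) were among the 3 lower. Over 6 libraries 3 of 23 were higher and 10 lower, and 4 of 22 called over 7 libraries stand beside 5.13% of all tested genes and 13 of 23 over 6 beside 13.6%.

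Of 13 genes of coagulation and fibrinolysis 7 were lower and none was higher, with and without CD11chiMϕ replicate 3, where 4.13% and 9.29% of all tested genes were lower. *F10*, coagulation factor X, was at 1.78, 1.05, 1.03 and 1.23 CPM in KRM and 28.4, 28.5 and 17.1 CPM in CD11chiMϕ (log2 fold change -4.28, adjusted p = 0.00246). *F5*, factor V, was at 0.473, 1.05, 2.16 and 0.205 CPM in KRM and 23.2, 37 and 32.4 CPM in CD11chiMϕ (log2 fold change -4.90, adjusted p = 0.0114). *F13a1*, which crosslinks fibrin, was at 23.7, 30.6, 23 and 28.2 CPM in KRM and 294, 398 and 114 CPM in CD11chiMϕ (log2 fold change -3.35, adjusted p = 0.00706). *F7*, factor VII, was at 0 in every KRM library and at 3.24, 3.29 and 2.6 CPM in CD11chiMϕ, at least 10.8-fold lower in KRM when 3 counts per library are allowed for (adjusted p = 0.0134, with the block 0.136). The median of the list was -3.35 over 7 libraries, also with *F7* at that bound, and -2.30 without CD11chiMϕ replicate 3, so its size rests in part on that library.

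*Bhlhe40*, a transcription factor by which serous cavity macrophages proliferate, was at 4.26, 7.95, 6.11 and 7.89 CPM in KRM and 355, 175 and 132 CPM in CD11chiMϕ. Its log2 fold change was -5.07 (SE 0.421, adjusted p = 0.0031, with the block 0.0408) and -5.33 over 6 libraries. *Rara*, a retinoic acid receptor, was at 19.1, 9.2, 11.3 and 13.4 CPM in KRM and 78.6, 51 and 26 CPM in CD11chiMϕ (log2 fold change -1.97, adjusted p = 0.0366, with the block 0.0869). *Aldh1a2*, which makes retinoic acid, was at 0.355, 0.732, 0.77 and 1.13 CPM in KRM and 66, 14.8 and 11.9 CPM in CD11chiMϕ (log2 fold change -5.34, adjusted p = 0.0113, with the block 0.0712). In all 3 CD11chiMϕ replicate 1 was highest and the groups did not overlap, and *Aldh1a2* lost its call without KRM replicate 1 or 2. *Id3*, an inhibitor of helix-loop-helix factors, was at 8.17, 5.44, 7.65 and 5.22 CPM in KRM and 26.4, 17.9 and 122 CPM in CD11chiMϕ, with the highest value in CD11chiMϕ replicate 3, and its log2 fold change went from -3.06 over 7 libraries to -1.74 over 6 (adjusted p = 0.0429 and 0.0057, with the block over 7 0.145). Of 26 factors tested 3 were lower and none was higher over 7 libraries, and 5 and 6 over 6, against 4.13% and 1% of all tested genes that were lower and higher over 7 libraries and 9.29% and 4.31% over 6.

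Of 18 immediate early genes, which digestion of tissue can induce, 6 were lower in KRM over 7 libraries, 7 of 19 over 6, and none was higher in either, where 4.13% and 9.29% of all tested genes were lower. *Nr4a3*, a nuclear receptor related to *Nr4a1*, was at 0.592, 0.732, 0.513 and 0.922 CPM in KRM and 7.89, 6.04 and 8.48 CPM in CD11chiMϕ (log2 fold change -3.43, adjusted p = 0.0043, with the block 0.0666). *Fosl2*, an AP-1 subunit, was at 4.85, 5.86, 5.13 and 5.63 CPM in KRM and 50.3, 51.7 and 37.2 CPM in CD11chiMϕ (log2 fold change -3.11, adjusted p = 0.00204, with the block 0.0356). *Fos*, the most abundant member and the founding AP-1 subunit, was at 5004, 4869, 3696 and 6390.1 CPM in KRM and 6604, 3767 and 2427 CPM in CD11chiMϕ (log2 fold change 0.23, adjusted p = 0.739, 0.915 over 6 libraries) and was not called. The heat shock genes *Hspa1a* and *Hspa1b*, near-identical copies whose reads can be shared, were higher in KRM over 6 libraries, by 0.84 and 0.79 (adjusted p = 0.0208 and 0.0168, the latter 0.0571 with the block), and were not called over 7.

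Of 18 genes of sterol and fatty acid synthesis 3 were lower in KRM over 7 libraries and 8 over 6, and of 17 of glycolysis 2 and 8, with none higher in either list, against 4.13% and 9.29% of all tested genes that were lower. *Fdps*, farnesyl diphosphate synthase, was at 26.2, 23.8, 22.1 and 25.4 CPM in KRM and 59.3, 42 and 55.7 CPM in CD11chiMϕ (log2 fold change -1.10, adjusted p = 0.0151, with the block 0.119). *Scd2*, a fatty acid desaturase, was at 21.7, 28, 27.2 and 26.3 CPM in KRM and 63.3, 56.6 and 49 CPM in CD11chiMϕ (log2 fold change -1.13, adjusted p = 0.0127, with the block 0.13). *Eno1*, enolase, was at 527, 473, 498 and 460.2 CPM in KRM and 1067, 817 and 863 CPM in CD11chiMϕ (log2 fold change -0.90, adjusted p = 0.0359, with the block 0.236). *Fabp5*, a carrier of fatty acids, was at 3.2, 3.45, 3.23 and 1.84 CPM in KRM and 25.8, 19.1 and 36.1 CPM in CD11chiMϕ (log2 fold change -3.20, adjusted p = 0.0043). In each of these 4 the lowest CD11chiMϕ library was above the highest KRM library. *Apoe*, apolipoprotein E, was at 10249.6, 7633, 7307 and 5272 CPM in KRM and 2035, 4329 and 2137 CPM in CD11chiMϕ, with no overlap, and its log2 fold change of 1.43 did not pass (adjusted p = 0.0921, 0.0517 over 6 libraries). Of 22 lysosome and cathepsin genes edgeR called none over 7 libraries, where 7 had an unadjusted p under 0.05, DESeq2 called 6 and limma 1. Without CD11chiMϕ replicate 3, edgeR called 5 higher and 1 lower, where 4.31% and 9.29% of all tested genes were. Over all 7 libraries, 14 of the 22 had every KRM library above every CD11chiMϕ library, against 12.7% of all tested genes.

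Markers of other cells were summed in each library, since a sort can carry them. *Slc34a1*, the phosphate transporter of the proximal tubule, was at 115, 104, 868 and 111 CPM in KRM and 92.5, 73.4 and 5639 CPM in CD11chiMϕ. Its log2 fold change was -2.69 over 7 libraries and 1.86 over 6, neither past the threshold (adjusted p = 0.31 and 0.243). *Umod*, uromodulin of the thick ascending limb, was at 4.26, 2.82, 116 and 2.36 CPM in KRM and 0.708, 3.5 and 566 CPM in CD11chiMϕ. Both were high in replicate 3 of each population. The 8 endothelial markers summed to 3.91 to 11.5 CPM in KRM and 13.5, 7.1 and 253 CPM in CD11chiMϕ. The 12 markers of T and NK cells summed to 4.85, 4.08, 4.31 and 3.59 CPM in KRM and 24.4, 8.27 and 47.6 CPM in CD11chiMϕ. The 6 of mast cells and basophils summed to 2.96, 2.61, 4.67 and 8.71 CPM in KRM and 27.3, 23.1 and 33.8 CPM in CD11chiMϕ. In these last 2 lists every CD11chiMϕ library was above every KRM library (exact permutation test over all 35 ways to assign the libraries, two-sided, p = 0.0286 for each, the smallest p they allow, and 0.2 after adjustment over the 14 lists). The 10 neutrophil markers summed to 95.4 to 117 CPM in KRM and 177, 238 and 51.7 CPM in CD11chiMϕ, with 2 and 3 of the 10 at 0 in every library of the population. The 10 of B and plasma cells summed to 1272 to 1619 CPM in KRM and 859.6, 1962 and 1809 CPM in CD11chiMϕ, without separation. Of single markers *Cd2* of T and NK cells, *Kit* of mast cells, *S100a8* and *S100a9* of neutrophils and *Sdc1* of plasma cells were lower in KRM over 7 libraries, by log2 differences of -4.93, -4.09, -3.71, -4.10 and -2.28 (adjusted p = 0.00955, 0.0178, 0.026, 0.0352 and 0.00623). With the block *Cd2* alone of the 5 stayed called, at 0.0442, and the others were at 0.0838, 0.122, 0.182 and 0.0707. All 5 were lower over 6 libraries too (adjusted p = 0.00317, 0.00714, 0.0118, 0.0169 and 0.00195). Of the neutrophil markers 2 of 5 tested were lower over 7 libraries and 5 of 6 over 6, and of mast cells and basophils 1 and 2 of 4. Of all tested genes 4.13% were lower over 7 libraries and 9.29% over 6. Of 7 tested markers of B and plasma cells 1 was lower in both fits, beside those same shares, and over 6 libraries 2 were higher, where 4.31% of all tested genes were. *Cd2* was the only marker of T and NK cells abundant enough to test over 7 libraries. The part of these cells in the genes lower in KRM was not tested.

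**Figure D5:**
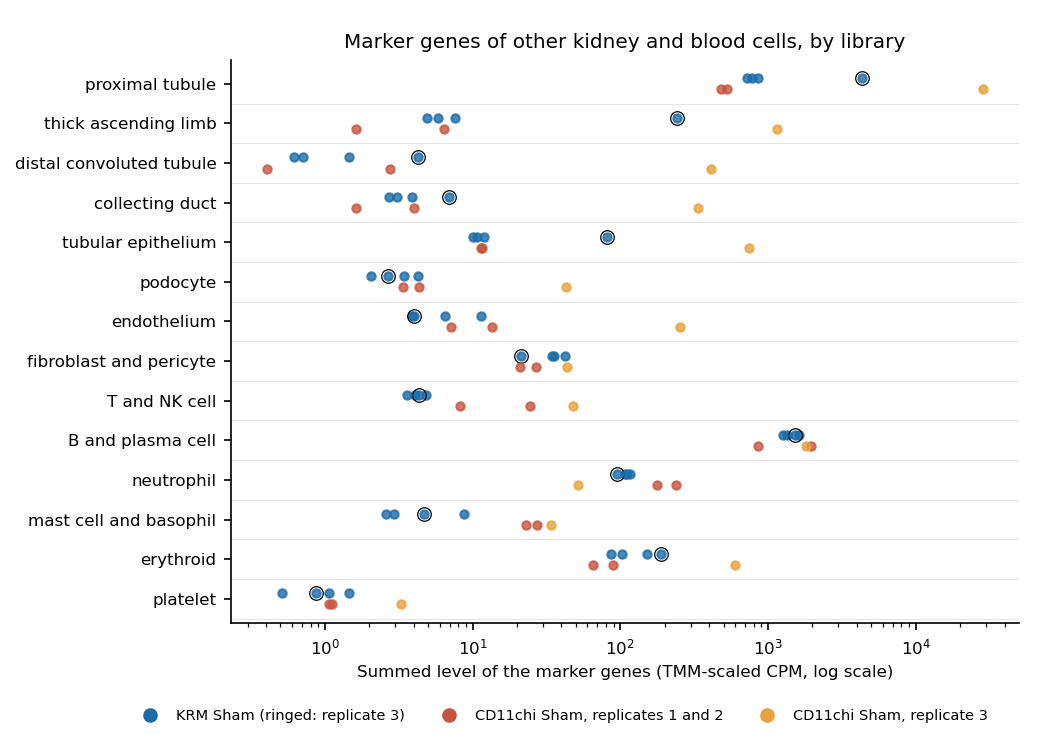
Summed level of the marker genes of 14 other cell types in each library (x axis, TMM-scaled CPM on a log scale), with KRM in blue (replicate 3 ringed), CD11chiMϕ replicates 1 and 2 in red and replicate 3 in orange. The orange point leads every tubule list, followed by the ringed KRM point, while T and NK cell and mast cell markers are higher in all 3 CD11chiMϕ libraries.

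The same populations were sequenced from RAS kidneys in 3 KRM and 4 CD11chiMϕ libraries that the Sham tests do not use. There 1221 of 13226 genes were called (9.23%), 551 higher in KRM (4.17%) and 670 lower (5.07%). The column of KRM RAS replicate 1 could not be matched between the 2 deposited tables, and without it, an alternative chosen after the data were seen, the balance turned, with 1820 of 14257 genes higher (12.8%) and 968 lower (6.79%), 2788 in all (19.6%). Markers of kidney tubules moved with these counts. The 39 genes of the 5 tubule lists summed to 2499, 8429 and 6581 CPM in KRM RAS replicates 1 to 3 and to 1336, 1663, 563.5 and 521 CPM in the CD11chiMϕ RAS libraries, with none at 0 throughout either population. Genes encoded by mitochondria took 1.15%, 4.51% and 4.86% of the counts of the KRM libraries and 1.03%, 5.02%, 1.80% and 1.87% of those of CD11chiMϕ. Of these tubule genes 13 of 35 tested were called higher in KRM and none lower, and without KRM RAS replicate 1 24 of 38, with median log2 fold changes of 3.73 and 4.25. Of all tested genes 4.17% and 12.8% were higher in these 2 fits. Their part in the RAS calls was not tested. Of the 509 genes lower in KRM in both Sham fits, 501 could be tested and 431 of those (86.0%) were lower again, where 48.2% of all genes tested in RAS were, and 220 were called, which is 43.2% of the Sham genes and 32.8% of the RAS genes. Of the 123 higher genes 117 could be tested, 111 (94.9%) were higher again against 51.8% of all, and 9 were called, 7.32% of the Sham genes and 1.63% of the RAS genes. *Fn1*, *Retnla* and *Siglecg* were among those called again, at -4.17, -6.09 and -6.09 on the log2 scale (adjusted p = 0.00533 for each). *Leprel2* and *Tgfb3* were called higher in both, at 2.05 and 3.05 (adjusted p = 0.028 and 0.0246). *Cxcl13* and *C3* were not, at 0.10 and 0.20 (adjusted p = 0.952 and 0.784). Of the 15 largest decreases 13 could be tested, 8 were called lower again, and *Cxcl13* and *Cd209f* lay above 0, the latter at 1.61 (adjusted p = 0.5). Of the serous cavity list 4 of 19 were lower in RAS, where 5.07% of all tested genes were, with a median log2 fold change of -1.92. Without KRM RAS replicate 1, 5 of 20 were lower and 2 higher, beside 6.79% and 12.8% of all, with a median of -2.47. A test of the difference between the RAS and Sham contrasts in edgeR called 0 of 14137 genes at an adjusted p under 0.05, while 3000 had an unadjusted p under 0.05. Without KRM RAS replicate 1, 423 of 506 lower genes (83.6%) and 99 of 119 higher genes (83.2%) kept their direction, against 50.6% and 49.4% of all genes. Called again were 233 and 11, which is 45.8% and 8.94% of the Sham genes. Of all genes 6.79% were called lower and 12.8% higher in that fit, so the higher genes were not called more often than genes at large.

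CD11cloMϕ of the Sham kidney placed these genes. Of the 123 genes higher in KRM in both fits, 108 had a mean level in CD11cloMϕ below that of both KRM and CD11chiMϕ (replicates 1 and 2), 12 lay between and 3 above both. Of the 509 lower genes 301 were highest in CD11cloMϕ, 132 lay between and 76 were lowest there. *Cd209a* was of the middle kind at 56.2 ± 42.7 CPM and *Klrd1* of the lowest at 0.698 ± 0.449 CPM, while *Fcna* was of the highest at 360.5 ± 344 CPM (SD, n = 3). These are levels without a test, since CD11chiMϕ enters both comparisons, and those of CD11cloMϕ are on the TMM scale of all 21 libraries.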

How the data were processed

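The authors deposited estimated counts per gene, which are not scaled, from paired-end reads of low-input libraries without molecular identifiers, aligned to mm10 with the OSA aligner and annotated with Ensembl release 83. They also deposited a log2 table, which is scaled to TPM, quantile normalised over all libraries and filtered (the log2 scale was read from its values), and it was used here only for the limma alternative, at a pseudocount of 1 or 0.1. Strand-specific counting is not given in the sources used here, so overlapping and antisense genes cannot be told apart.

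Lines of the same symbol were summed (3730 of 37620 lines share one), expected counts were rounded, and 25 names that had turned into dates were left as they are. Genes were kept by filterByExpr of edgeR (at least 10 counts, 15 in total), scaled by TMM and tested with edgeR 4.0.16 (glmQLFit and glmQLFTest, two-sided) in R 4.3.3, over the 7 libraries and again without CD11chiMϕ replicate 3, with p-values adjusted over all genes tested. DESeq2 1.42.0 and limma 3.58.1 were alternatives. The test was tried on simulated counts first. Totals were 8380486 to 18592381 counts per library.

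Replicate numbers come from the labels. Deviations from the group mean correlated at 0.220, 0.450 and 0.673 between KRM and CD11chiMϕ libraries of the same number, so the number was taken as a block in a further fit. The last value is of replicate 3, the library with the most tubule RNA in each population. KRM replicate 4, which has no partner, correlated at 0.419 and 0.367 with CD11chiMϕ replicates 1 and 2, so the pairing is not settled.

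The gene lists, the named genes and the populations compared were chosen with earlier results of these data known. Named genes are the 15 with the largest fold change in each direction among those called in both fits, with an average of at least 3 on the log2 CPM scale and groups that do not overlap, without gene models or immunoglobulin segments. To these come up to 4 called and 2 most abundant members of each list, the sort markers and genes the study names. *Ccl2*, *Ccl12*, *Ptgs1*, *Ptgs2*, *Gata6* and the immunoglobulin segments were named after their values were seen. Of 623 list genes 619 were found, 9 of them under older symbols, and the others were not analysed here. A few genes that the rule names are not reported here. Positions are from GENCODE vM21 (GRCm38) and promoters from RefSeq (GRCm38.p6), which held 8613 of the tested genes.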

Additional observations from a re-analysis of the deposited data

Results flagged for a closer look

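KRM replicate 3 lay apart from the other KRM libraries in depth and in tubule markers, by Dixon's test for 1 far value among 4. It held 18592381 counts, against 8739623 to 9578530 in the others. Its markers of the proximal tubule summed to 4363 CPM against 724 to 852 CPM, those of the thick ascending limb to 241 CPM against 4.92 to 7.57 CPM, and those of tubular epithelium in general to 81.5 CPM against 10.1 to 11.9 CPM. Among single genes *Slc34a1* was at 868 CPM in it against 104 to 115 CPM, and *Umod* at 116 CPM against 2.36 to 4.26 CPM. *Cd24a* was at 5.95 CPM in the same library against 3.07 to 3.45 CPM. *Serpinb2* was at 0.205 CPM, *Selp* at 0.103 CPM and *Gata6* at 0.0513 CPM in it against 0 in the 3 other KRM libraries, which have fewer counts.

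Other genes had 1 far library in KRM. *C1qa* was at 4035 CPM in replicate 1 against 2659 to 2862 CPM, and *Fcgr4* at 455 CPM in the same library against 357 to 368 CPM. *Trem1* was at 5.53 CPM in replicate 4 against 1.67 to 2.25 CPM, and *Fabp5* at 1.84 CPM against 3.20 to 3.45 CPM. Of 159 values tested in this way 14 passed, where chance flags about 1 in 20 groups if the groups are independent. They are not, since *Slc34a1* and *Umod* belong to summed lists flagged beside them. A gene at 0 in all KRM libraries but 1, such as *Gata6*, always passes. No excess over chance is therefore read from the 14. CD11chiMϕ, with 3 libraries, could not be put to this test.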

How the results depend on the processing

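Over 7 libraries the genes called higher in KRM numbered 124 and the genes called lower 511. Leaving out 1 library gave 6 to 544 higher and 149 to 1173 lower, with the highest counts without CD11chiMϕ replicate 3, and leaving out replicate 3 of both populations gave 438 and 1059. DESeq2 called 633 higher and 1180 lower, 1 fit over all 6 groups 24 higher, total library size 64 higher, no filter 50 higher and a minimum of 10 counts in every library 317 lower. With limma on the log2 values, 249 were lower at a pseudocount of 1 and 257 at 0.1. A fold above 2 with an unadjusted p under 0.05 gave 428 and 1120. Without CD11chiMϕ replicate 3 there were 544 higher and 1173 lower, and leaving out a further library, an alternative added after the data were seen, gave 46 to 735 and 393 to 1366. The 46, 735 and 393 come from fits that leave CD11chiMϕ with 1 library, which is then assumed to vary like KRM, and with 1 KRM library left out the counts were 153 to 472 and 734 to 1366. DESeq2 then called 966 higher, the fit over 6 groups 4 higher and 543 lower, limma at a pseudocount of 0.1 708 lower, and a fold above 2 left 229 higher.

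The replicate block gave 2 higher and 87 lower over 7 libraries, with 1 and 84 of them shared with the calls without the block, and 635 and 1188 without CD11chiMϕ replicate 3. Not every library correlated best with its own number. CD11chiMϕ replicate 1 correlated at 0.419 with KRM replicate 4 and at 0.357 with KRM replicate 2, against 0.220 with KRM replicate 1.

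The share of calls lower in KRM was 80.5% over 7 libraries, 65.1% with DESeq2, 69.7% with limma at a pseudocount of 1, 96.2% with 1 fit over 6 groups, 97.8% with the block and 58.8% to 96.8% with 1 library left out. The 6 libraries left without CD11chiMϕ replicate 3 had 68.3%, and 99.3% with 1 fit over 6 groups.

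Of 2474 values of 140 named genes under alternatives over 7 libraries, 1882 kept direction and side of the threshold, 520 lost the call, 44 gained it and 28 turned direction. Of 2197 values without CD11chiMϕ replicate 3 these numbers were 2015, 154, 19 and 9. Each gene that turned was past the threshold in neither setting, and its values are log2 fold changes. With 1 library left out *Slc34a1* ranged from -4.16 to 1.86, *Umod* from -5.94 to 3.93, *Ccr2* from -0.69 to 0.15, *Fos* from -0.0518 to 0.71, *Pcna* from -0.304 to 0.215, *Mgl2* from -0.373 to 0.308 and *Il1b* from -0.112 to 0.272. Without replicate 3 of both, *Slc34a1* was at 0.41 and *Umod* at 0.58. With limma at pseudocounts of 1 and 0.1, *Ccr2* was at 0.198 and 0.20, *Pcna* at 0.181 and 0.183, *Mgl2* at 0.435 and 0.436 and *Il1b* at 0.218 and 0.218. *Mgl2* was at 0.00786 with 1 fit over 6 groups and 0.137 with the block. *Il1b* was at 0.0193 with total library size, 0.0309 with no filter, 0.0452 with 1 fit over 6 groups, 0.0580 with the block and 0.00600 with lines of a symbol kept apart. Without CD11chiMϕ replicate 3 and 1 more library, *Fos* ranged from -0.402 to 0.407, *Il1b* from -0.394 to 0.310, *Itgax* from -0.0542 to 0.0381 and *Pcna* from -0.619 to 0.0951. There *Itgax* was at -0.0201 with total library size, -0.00928 with a minimum of 10 counts in every library and -0.0854 with the block, where *Il1b* was at 0.0295. The summed level of B and plasma cell markers went from -0.02 to 0.0284 as a share of the total count. The causes were not tested.

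With 3 and 4 libraries a group, the animals behind each library are not given in the labels, so p-values measure the spread between these libraries. Genes near the count minimum rest on few reads, and the libraries carry no molecular identifiers.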

Other observations

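A set of immunoglobulin kappa variable segments, chosen after their values were seen, was higher in KRM in both fits. *Igkv3-4* was at 2.96, 3.56, 19.5 and 18.9 CPM in KRM and 0.101, 0 and 0 CPM in CD11chiMϕ. *Igkv5-39* was at 3.55, 3.87, 9.85 and 10.8 CPM in KRM and 0.101, 0 and 0 CPM in CD11chiMϕ. KRM replicates 3 and 4 were high and replicates 1 and 2 low in both segments. *Igkv4-50* was at 1.07, 1.99, 5.24 and 6.56 CPM in KRM and at 0 in every CD11chiMϕ library. *Igkv8-19* had the other order within KRM, with 15.9, 12.3, 6.16 and 3.07 CPM, and 0, 0.106 and 0 CPM in CD11chiMϕ, and it was the 1 gene called higher in all of the fits with and without the replicate block over 7 libraries. Segments of this family share sequence, so reads can be assigned to the wrong one, and no fold is given. With the replicate block over 7 libraries the adjusted p from edgeR was 0.0625 for *Igkv3-4* and *Igkv5-39* and 0.138 for *Igkv4-50*.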
